A study of Mus musculus with 12 samples.

Results

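Follicular helper T (Tfh) cells sorted from mouse tumours were set against CD4+ T cells cultured under 3 conditions, and the genes described here are those whose level in all 3 tumour libraries lay outside the range of all 9 cultured libraries. Levels are scaled TPM, which are the deposited TPM (transcript abundances corrected for transcript length, with the same sum in every library) divided by a size factor for each library, the median of its ratios to the mean library over the 17585 genes above 0 in all 12 libraries. Of 35492 gene symbols, 12433 had a mean of at least 5 scaled TPM in 1 group or more and are called eligible below. The members were chosen by these values: 597 genes (4.8% of the eligible) were higher in the tumour libraries than in every cultured library and 595 (4.79%) were lower, 1192 in all. The tumour-against-culture values below are therefore descriptions and carry no test.

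All mice were C57BL/6J and 7 weeks old, and each of the 4 groups has 3 libraries. Tfh_tumour cells were CD4+ CXCR5+ PD1+ cells sorted out of tumours of MC38, a colon carcinoma line of the mouse, and they were not cultured. Their name follows the labels, and these libraries also held Foxp3 and macrophage transcripts, given below. Tfh_WT and Tfh_OTII cells came from naive CD4+ T cells put into Tfh-polarising culture with IL-6 and IL-21 (50 ng/ml each) and antibodies blocking IL-4, IFNγ and TGFβ (10 µg/ml each), on plates coated with CD3 and CD28 antibodies. Tfh_OTII cells carry the OT-II transgenic receptor for an ovalbumin peptide, so they share 1 receptor specificity. Th1_WT cells were cultured on the same kind of plate with IL-12 (10 ng/ml) and an antibody blocking IL-4 (10 µg/ml). By the titles, Tfh_OTII cells were cultured for 48 h and the other cultures for 24 h, but by the protocol both polarisations took 48 h. A tumour origin, the lack of culture, the sort and the time since activation come together in the tumour group, so they cannot be told apart. The labels do not say that replicates came from separate animals or cultures, so the spread between libraries may be technical.

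The files give no read counts, so depth is unknown. Size factors were 1.15 to 1.42 in the tumour libraries, 1.10 to 1.30 in Tfh_WT, 1.06 to 1.44 in Tfh_OTII and 0.472 to 0.668 in Th1_WT, where the 10 highest genes held 50.7% to 66.5% of all TPM against 14.4% to 30.7% elsewhere. The tumour libraries expressed the T cell receptor complex gene Cd3e at 162, 216 and 185 and Cd4 at 105, 122 and 99.9, while Cd8a stood at 5.13, 3.24 and 4.07 scaled TPM. Cxcr5, Pdcd1 (PD-1) and Cd4 were used in the sort, so their levels are no finding. Tumour replicate 2 stood apart from replicates 1 and 3. It held the highest of the 12 values in 497 of the 597 higher members (83.2%), whereas it was the highest of the 3 tumour libraries in 38.8% of all eligible genes and in 19.5% of the lower members. The median log2 ratio of replicate 2 over replicate 1 was 0.89 over the higher members and -0.06 over all eligible genes. Without replicate 2, 659 genes were higher, 547 of them among the 597, and 869 were lower. Leaving out a library can only loosen the rule, since fewer values must be separated. A member then stays a member unless it falls below the filter, so a count kept in this way was fixed in advance.

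Cells answer interferon through JAK kinases and STAT transcription factors. Type I interferons act through a complex of STAT proteins and IRF9 that binds repeated short sites in the promoters of interferon-stimulated genes, and IRF7, itself a product of such a gene, reinforces the response. The products include inhibitors of viral translation (IFIT proteins), 2′-5′ oligoadenylate synthetases (OAS), GTPases (MX, GBP and IRG proteins) and the p200 family of nucleic acid binding proteins. Tfh cells are defined by BCL6, CXCR5 and PD-1 and help B cells in germinal centres, and tumours also hold regulatory T (Treg) cells, defined by FOXP3.

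The promoter sequences of interferon-stimulated members are shown because these genes were among those with the largest differences and many hold a sequence that the choice of members did not use. The repeat searched was TTTC, any 2 bases and TTTC again, or GAAA, any 2 bases and GAAA when read on the other strand, and it is the core that IRF transcription factors bind. In the 250 bases upstream of RefSeq transcript starts (GRCm38.p6), it was present in 12.4% of the higher members with a promoter in the table (52 of 420), 3.49% of the lower members (16 of 459), 3.67% of the eligible genes (313 of 8540) and 3.46% of all 27025 genes listed. Of the 17 type I interferon members with a promoter in the table, 10 held it (58.8%), and 9 held it within the 150 bases nearest the start. Below are the 150 bases upstream of the start, read 5′ to 3′ on the strand of the gene with the repeat in capitals. The first 4 genes are the type I interferon members with a repeat in this window and the largest differences.
Ifit3, chr19:34583379-34583528, plus strand: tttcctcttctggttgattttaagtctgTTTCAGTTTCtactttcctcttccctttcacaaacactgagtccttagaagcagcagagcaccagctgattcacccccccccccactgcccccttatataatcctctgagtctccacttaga
Rsad2, chr12:26456453-26456602, minus strand: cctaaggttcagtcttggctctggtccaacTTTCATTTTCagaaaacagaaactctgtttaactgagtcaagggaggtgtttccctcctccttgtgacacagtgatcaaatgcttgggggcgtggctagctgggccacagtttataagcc
Isg15, chr4:156200819-156200968, minus strand: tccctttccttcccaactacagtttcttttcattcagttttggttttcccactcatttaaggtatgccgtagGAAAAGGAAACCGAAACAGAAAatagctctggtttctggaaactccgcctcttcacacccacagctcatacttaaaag
Ifit1, chr19:34640739-34640888, plus strand: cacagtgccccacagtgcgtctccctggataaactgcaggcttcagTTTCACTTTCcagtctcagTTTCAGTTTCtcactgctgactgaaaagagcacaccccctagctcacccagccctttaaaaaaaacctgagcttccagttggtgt

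In these windows the repeat starts 122 bases before the transcript start in Ifit3, 120 in Rsad2 and 104 and 85 in Ifit1, while Isg15 holds 3 overlapping copies that begin 78, 72 and 66 bases before it. The next 4 genes belong to the p200 family, whose 12 eligible genes lie together on chromosome 1 (chr1:173350879-174031810, GRCm38). They are the members of that family with a repeat in this window and the largest differences.
Ifi205, chr1:174031756-174031905, minus strand: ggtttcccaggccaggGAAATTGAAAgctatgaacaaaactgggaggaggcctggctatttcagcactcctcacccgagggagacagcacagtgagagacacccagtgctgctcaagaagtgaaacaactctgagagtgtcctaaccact
Ifi207, chr1:173741810-173741959, minus strand: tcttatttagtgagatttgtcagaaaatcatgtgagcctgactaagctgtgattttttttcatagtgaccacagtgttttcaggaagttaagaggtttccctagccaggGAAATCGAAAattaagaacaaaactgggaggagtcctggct
Ifi206, chr1:173491319-173491468, minus strand: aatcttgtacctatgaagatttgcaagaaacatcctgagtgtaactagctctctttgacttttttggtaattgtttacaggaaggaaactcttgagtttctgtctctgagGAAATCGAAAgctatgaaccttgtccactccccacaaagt
Ifi211, chr1:173913047-173913196, minus strand: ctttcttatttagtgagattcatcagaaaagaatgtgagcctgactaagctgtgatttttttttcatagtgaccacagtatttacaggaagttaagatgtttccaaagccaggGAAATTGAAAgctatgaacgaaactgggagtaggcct

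Ifi206, Ifi207 and Ifi211 carry the repeat 40, 41 and 37 bases before the start, and Ifi205 carries it 134 bases before. Of the 10 higher p200 members with a promoter in the table, 9 held a repeat in this window, 7 with TC between the GAAA units and 2 with TT. These genes arose by duplication, so their promoters are related copies. Irf7, Ifit3b, Oasl2, Cmpk2, Xaf1, Ifit2, Oasl1 and Ifi44 had no match in their windows, nor had the p200 gene Ifi209, and Rtp4 was not in the promoter table. Other motifs were commoner in higher members too: the AP-1 site TGANTCA was found in 12.4% of higher members, 5.23% of lower members and 5.69% of eligible genes, and the STAT site, TTC, any 3 bases and GAA, in 11.9%, 6.32% and 7.68%. A match says only that the letters are there. Promoters also differed in base composition, with a median GC content of 54.0% in higher members, 59.2% in lower members and 59.2% in eligible genes.

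Of the lists with at least 6 eligible genes, the type I interferon-stimulated genes had the largest share of higher members. Of the 28 genes on the list, all eligible, 25 were higher in the tumour libraries and the other 3 (Bst2, Phf11b and Slfn5) overlapped the cultures. The median log2 difference over the 28 genes, tumour mean minus the equally weighted mean of the 3 culture groups on the log2(scaled TPM + 1) scale, was 2.84, against -0.07 over all eligible genes. Summed over the list, the tumour replicates reached 957, 5505 and 1538 scaled TPM, and the cultures lay between 194 and 494.

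Ifit3, an IFIT protein gene on chromosome 19 (chr19:34583531-34588731, GRCm38), had the widest separation of any named member, at 42.4, 433 and 109 scaled TPM in tumour replicates 1, 2 and 3 against 1.79, 2.37 and 3.34 in Tfh_WT, 1.39, 1.48 and 1.68 in Tfh_OTII and 1.42, 2.48 and 1.81 in Th1_WT. Its log2 difference was 5.45 ± 0.47 (limma standard error, SE, n = 3 libraries per group), and the lowest tumour library stood 3.32 log2 units above the highest culture. All 3 tumour libraries were far above the cultures, and they differed from each other by more than the cultures did. Rsad2, which encodes the antiviral enzyme viperin, was at 10.1, 275 and 73 in the tumour libraries and at 0.492 to 1.74 in the cultures. Irf7, the transcription factor named above, was at 22.4, 254 and 62.1 against 2.95, 2.20 and 2.96 in Tfh_WT, 1.17, 1.65 and 2.20 in Tfh_OTII and 2.12, 6.16 and 6.88 in Th1_WT (log2 difference 4.25 ± 0.52). In each of these genes replicate 1 was the lowest tumour library and replicate 2 the highest. The SE pools 1 spread over the 4 groups. For Ifit3 and Irf7, whose tumour libraries differed more than the cultures, it therefore understates the spread of the tumour libraries.

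The ubiquitin-like modifier gene Isg15 was at 41.6, 312 and 67.7 in the tumour libraries, and here the cultures were not alike: Tfh_WT had 5.63, 6.26 and 6.59, Tfh_OTII 2.63, 1.67 and 2.52 and Th1_WT 13.8, 18.3 and 32.8. The nearest Th1_WT library came close to the lowest tumour library without overlapping it. Rtp4, a receptor chaperone gene, was at 23.8, 127 and 39 against 0.303 to 3.19 in the cultures. Among the type I list's higher members, replicate 2 was the highest library in 25 of 25. Without replicate 2 the median was 2.13. The count above every culture was 25 of 28, which could fall only through the filter. With TPM as deposited it was 26. The macrophage and neutrophil marker sums given below had the same order of tumour libraries, and their part in the interferon genes was not tested.

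Many of these members came from families of related genes. Of the 12 eligible p200 genes, 11 were higher, with a median log2 difference of 3.21. Ifi206 was at 32, 146 and 45.3 against 0.792 to 4.30 in the cultures, Ifi205 at 17.5, 160.2 and 37.3 against 0.369 to 3.76, and Ifi211 at 14.9, 196 and 39.5 against 0.961 to 14.8. The exception, Aim2, which encodes a sensor of cytosolic DNA, stood at 29.3, 68.3 and 30.9 in the tumour libraries and at 20.2 to 35.2 in the cultures. All 7 eligible Oas genes were higher, as were 5 of 6 Ifit genes, 5 of 9 guanylate-binding protein (Gbp) genes, 4 of 7 Schlafen genes and 3 of 4 Trim30 genes. Members of these families are near-identical in places, so the split of reads between single copies is uncertain.

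Genes better known for answering IFNγ separated less. Of 29 eligible genes for IFNγ-induced GTPases, MHC class I and related factors, 8 were higher and 0 lower (median log2 difference 0.93). Without tumour replicate 2 the median was 0.51 and the 8 remained by the rule, and with TPM as deposited 16 were higher. The GTPase gene Gbp6 was at 98.4, 210.1 and 99 against 23.6, 15 and 22.2 in Tfh_WT, 12.6, 16.2 and 17.3 in Tfh_OTII and 39, 50.8 and 37.4 in Th1_WT, and Irgm1 at 77.9, 114 and 79 against 8.94 to 75. In both GTPase genes Th1_WT was the nearest culture. When the Th1_WT group was left out of the range, 24 of the 29 genes were higher, whereas for the type I list the count went from 25 to 27 of 28.

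**Figure D1:**
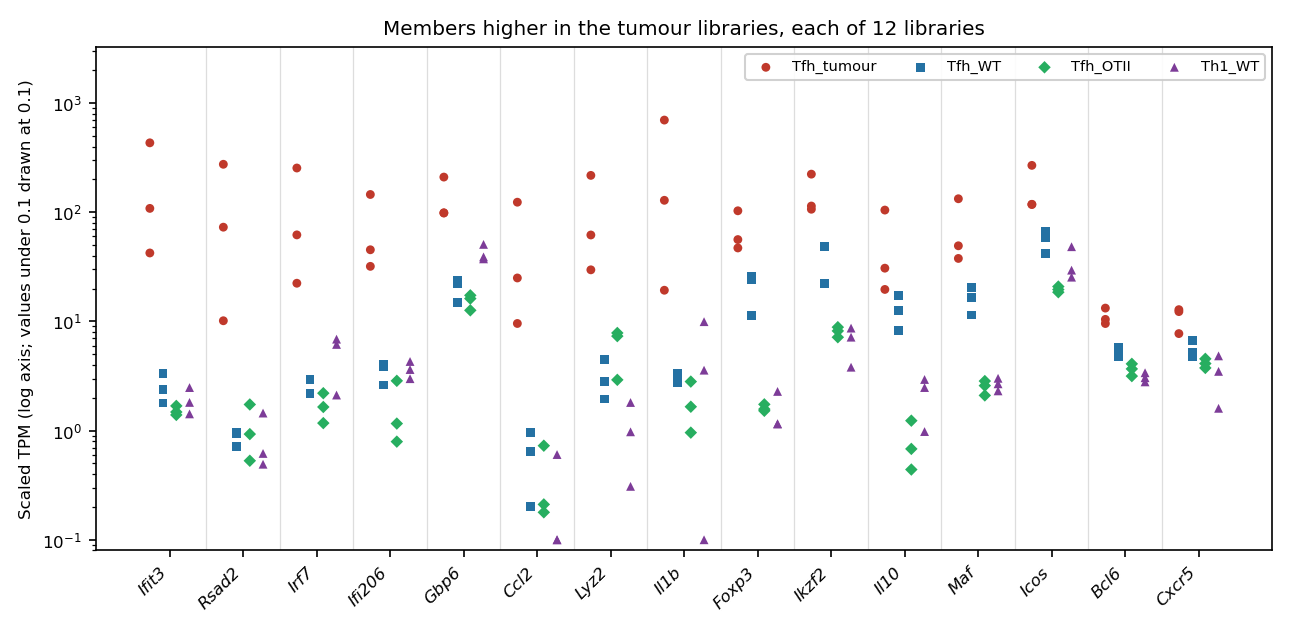
Scaled TPM (log axis) of 15 higher members, 1 point per library, coloured by group; values under 0.1 are drawn at 0.1. Each gene's 3 tumour points lie above its 9 culture points, with Ifit3 spanning 42.4 to 433 in the tumour libraries against at most 3.34 in culture.

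Macrophage and monocyte genes were also prominent among the higher members. In a bulk sample, fewer cells of a type and less RNA per cell cannot be told apart, and levels here are averages over whatever cells the sort held. Of the 27 listed macrophage and monocyte markers, 20 were eligible and 15 were higher (median log2 difference 2.52). The listed macrophage genes Lyz1, Adgre1, C1qa, C1qb, C1qc, Mrc1 and Trem2 were below the filter. Summed over the list, the tumour replicates held 342, 2343 and 622 scaled TPM against 101 to 188 in the cultures.

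Lyz2, which encodes the lysozyme of myeloid cells, was at 29.7, 218 and 61.9 in the tumour libraries and at 0.308 to 7.84 in the cultures. Cd14, a co-receptor for lipopolysaccharide, was at 3.25, 62.3 and 14.1 against 0.120 to 1.11, and Fcgr1, the high-affinity IgG receptor, at 4.74, 65.6 and 16 against 0 to 1.89. Spp1, which encodes osteopontin, was at 18.1, 253 and 52.8 against 0 to 3.71. All 15 higher members of the list were highest in tumour replicate 2, and in Cd14 replicate 1 lay close to the cultures. Adgre1, which encodes the macrophage protein F4/80 and is too low to be eligible, was at 1.92, 7.01 and 3.04, and the complement gene C1qa at 0.573, 4.29 and 0.801. Without replicate 2, 13 of 18 eligible markers were higher, with a median of 1.78.

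The inflammatory cytokine genes followed the same order of tumour libraries. Il1b, which encodes interleukin-1β, was at 19.3, 699 and 129 against 0 to 9.95, and Il1rn, which encodes the antagonist of its receptor, at 28.4, 569 and 134 against 0.842 to 5.64. The chemokine list had 9 higher members of 17 eligible (median 2.21). Without replicate 2 the median was 1.68, and the 9 remained by the rule. Ccl2, which attracts CCR2-bearing monocytes, was at 9.58, 124 and 25 against 0 to 0.959, and Ccl7, a ligand of the same receptor, at 8.76, 40.2 and 11.1 against 0 to 0.830. Cxcl2 and Cxcl3 attract neutrophils. Cxcl2 ranged widely, at 10.3, 348 and 57.2 against 0 to 2.26, whereas Cxcl3 was within a narrower band, at 26.9, 40.9 and 21.2 against 0.178 to 3.18. The interferon-induced chemokine gene Cxcl10 was at 21.1, 169 and 42.3 in the tumour libraries and at 3.15, 13.2 and 11.3 in Th1_WT, the highest of the cultures.

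Neutrophil marker sums were lower than macrophage marker sums and less even between tumour libraries. Summed over the 10 listed genes, they stood at 36.9, 1092 and 208 scaled TPM in the tumour replicates and at 17.8 to 38.5 in the cultures, so replicate 1 lay within the cultures' range. Il1b, given above, is on this list and held more of each tumour sum than the other listed genes together. Of 6 eligible markers, 1 (Il1b) was a higher member, and 5 of 6 were higher without tumour replicate 1. S100a9, which encodes a subunit of the neutrophil protein calprotectin, was at 0.344, 211 and 27.8 in the tumour replicates, and S100a8, its partner, at 0, 80.8 and 16.7. The antigen presentation genes H2-Ab1, Ciita and Cd86 were higher among 11 eligible MHC class II genes, with H2-Ab1 at 25.5, 102 and 32.7 against 5.91 to 19.3. Of the 11, 7 were higher with TPM as deposited and 8 without the Th1_WT group. Of 22 lysosomal genes 6 were higher, 10 with TPM as deposited and 12 without the Th1_WT group. Their median log2 difference was 1.12, and 0.59 without tumour replicate 2. Ctss, which encodes cathepsin S, was at 102, 541 and 141 against 24.6 to 52.7. The part of the macrophage and neutrophil markers in the other higher members was not tested.

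**Figure D2:**
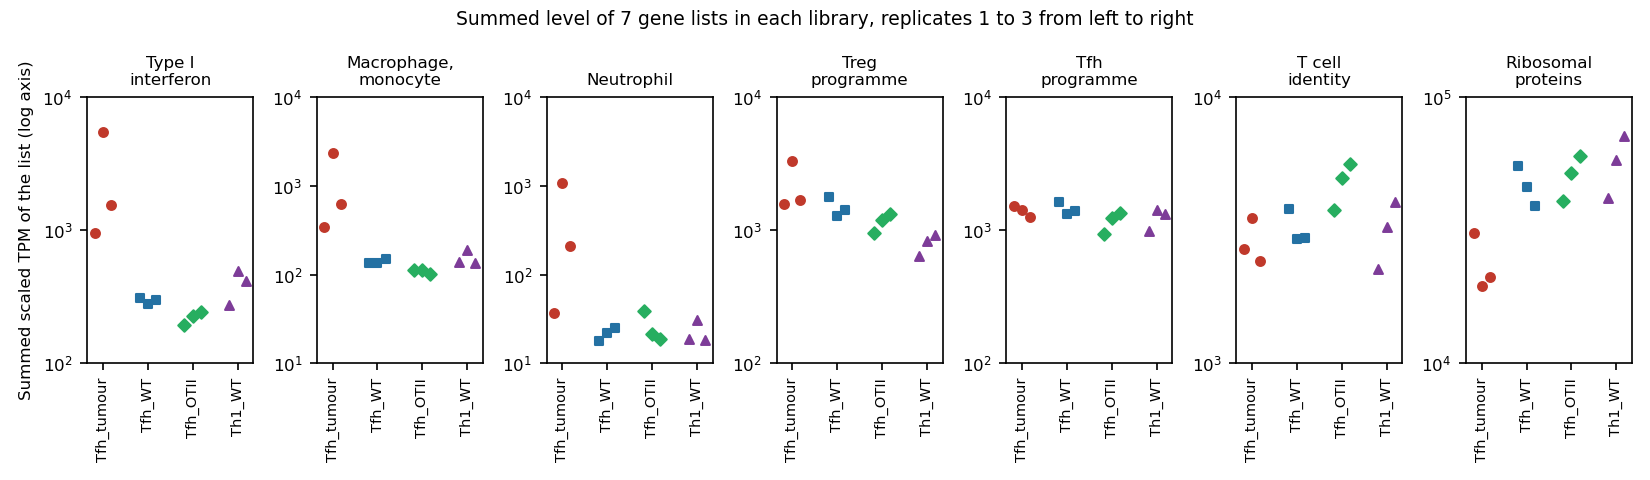
Summed scaled TPM (log axis) of the genes of 7 lists in each of the 12 libraries, by group, 1 panel per list. Tumour replicate 2 stands above the other libraries for the type I interferon, macrophage and neutrophil lists, at 5505, 2343 and 1092. The neutrophil list includes Il1b, which held the largest part of its tumour sums.

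Markers of other cell types were closer to the cultures. Summed epithelial and carcinoma markers were 7.38 to 21.2 scaled TPM in the tumour libraries and 5.04 to 22.2 in the cultures, and the sum of Cd8a and Cd8b1 was 9.02 to 10.9 against 12.2 to 20.4. B cell and plasma cell markers were 157 to 206 against 59.1 to 343, dendritic cell markers 66.7 to 76.2 against 20.3 to 88.3, and endothelial markers 90.6 to 134 against 69.5 to 208. The B cell and dendritic cell sums lay above both Tfh cultures, which held 59.1 to 126 and 20.3 to 34.4. In Th1_WT these sums were 232 to 343 and 36.0 to 88.3. Without the Th1_WT group, 3 of 7 eligible B cell markers and 3 of 6 dendritic cell markers were higher. Fibroblast markers were 24.6 to 36.9 against 11.4 to 32.5, and NK cell markers 58.6 to 142 against 20.4 to 73.6. These ranges of sums overlapped the cultures except for the sum of Cd8a and Cd8b1, and neither of these genes was a member: Cd8a stood at 2.02 to 5.55 in the cultures and overlapped the tumour libraries, as did Cd8b1, at 5.16, 7.64 and 4.95 against 7.32 to 18.3.

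Regulatory T cell genes were a further group among the higher members. Of 22 eligible Treg programme genes, 11 were higher and 0 lower (median log2 difference 1.36), and 10 of 23 were higher with TPM as deposited. Without replicate 2 the median was 1.04, and the 11 remained by the rule. Foxp3 (X chromosome), the defining Treg transcription factor, was at 47.1, 103 and 56.2 in the tumour libraries, 26.1, 11.3 and 24.4 in Tfh_WT, 1.52, 1.74 and 1.57 in Tfh_OTII and 1.15, 1.16 and 2.28 in Th1_WT. Its log2 difference was 3.70 ± 0.28 (SE, n = 3 per group). The tumour libraries were highest, Tfh_WT was between, and Tfh_OTII and Th1_WT lay together near 1 to 2. A highest culture mean in Tfh_WT was not particular to Treg genes, since 320 of the 597 higher members had it.

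Ikzf2, which encodes the Treg factor Helios, had the same order, at 107, 224 and 114 in the tumour libraries, 48.3, 22.2 and 48.2 in Tfh_WT, 7.17, 8.19 and 8.86 in Tfh_OTII and 3.81, 7.18 and 8.69 in Th1_WT. Il10, the anti-inflammatory cytokine gene, was at 19.6, 105 and 30.8 in the tumour libraries, 12.6, 8.27 and 17.2 in Tfh_WT, 0.680, 1.23 and 0.440 in Tfh_OTII and 0.980, 2.94 and 2.48 in Th1_WT. Its lowest tumour library stood 0.18 log2 units above the highest Tfh_WT library. Nt5e, which encodes the adenosine-producing enzyme CD73, was at 34, 38.9 and 31.9 in the tumour libraries, 19, 12.7 and 17.5 in Tfh_WT, 2.72, 2.69 and 2.02 in Tfh_OTII and 1.87, 5.02 and 2.67 in Th1_WT. The 3 tumour libraries were close together in Nt5e, and so were they in Nrp1, a neuropilin carried by thymic Treg cells, at 17.2, 14.3 and 13.3 against 1.80 to 9.29, and in Lrrc32, which encodes the TGFβ anchor GARP, at 17.6, 24.9 and 25.9 against 0.780 to 9.38. The growth factor gene Areg was not even, at 4.08, 159 and 32.6 against 0 to 3.97, and it overlapped the cultures with TPM as deposited. Of the 11 higher members, 9 were highest in replicate 2, the library with the highest macrophage marker sum.

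Part of the Tfh programme was higher as well. Of 22 eligible Tfh genes, 7 were higher (Cxcr5, Bcl6, Icos, Tox, Tox2, Maf and Angptl2) and 0 were lower, with a median log2 difference of 0.47. Cxcr5 was used in the sort, so its place among the 7 is no finding. Without the Th1_WT group in the range, 8 were higher and 4 lower, without tumour replicate 1 there were 7 higher and 3 lower, and with TPM as deposited the median was 1.03. Bcl6, the master factor of Tfh cells, was at 9.57, 13.3 and 10.4 against 5.84, 4.73 and 4.94 in Tfh_WT, 3.16, 3.67 and 4.09 in Tfh_OTII and 3.05, 3.39 and 2.79 in Th1_WT (log2 difference 1.30 ± 0.19). Maf, a factor that drives IL-21 and IL-10 transcription, was at 37.8, 133 and 49.3 against 16.7, 11.5 and 20.6 in Tfh_WT, 2.58, 2.84 and 2.10 in Tfh_OTII and 2.68, 3.01 and 2.31 in Th1_WT. Icos, the costimulatory receptor of Tfh cells, was at 118, 269 and 118 against 66.1, 42.2 and 58.1 in Tfh_WT, 18.5, 20.9 and 19.6 in Tfh_OTII and 25.4, 48.4 and 29.5 in Th1_WT.

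Il21, the cytokine gene of Tfh cells, did not follow these genes and was no member. It stood at 8.05, 3.71 and 4.64 in the tumour libraries, 89.1, 80.8 and 57.7 in Tfh_WT, 46.3, 60.8 and 67.6 in Tfh_OTII and 2.74, 12.4 and 11.5 in Th1_WT, so the tumour libraries lay below both Tfh cultures and overlapped Th1_WT. The sort markers were not equally separated either: Cxcr5 was at 12.8, 7.74 and 12.3 against 1.60 to 6.68, while Pdcd1, at 22.8, 28.2 and 21.1, overlapped Th1_WT (6.03, 15.7 and 21.4). Among 22 eligible inhibitory receptor and exhaustion genes, Tox, Cd200r1, Cd274 and Nt5e were higher, and 7 of 23 were higher without tumour replicate 1 and with TPM as deposited. Cd274, which encodes PD-L1, was at 133, 173 and 104 against 21.3 to 83.3, and Tox, a chromatin factor of exhausted and Tfh cells, at 31.8, 25.6 and 26.4 against 8.59 to 21.2.

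The chemokine and migration receptors had 6 higher members and 1 lower member of 24 eligible, and 10 higher members without tumour replicate 1. The median log2 difference was 0.85, and 0.49 without tumour replicate 2. Ccr2, the receptor for CCL2 and CCL7, was at 12.2, 234 and 51.4 against 1.99 to 9.58. It is also on the macrophage list and was highest in replicate 2. Cxcr6, a receptor of tissue T cells, was at 11.2, 47.3 and 15.5 against 2.86 to 8.28, and Cxcr4, the receptor for CXCL12, at 15.4, 57.7 and 22.2 against 2.68 to 9.07. Th1 genes were mixed, with 3 higher members of 22, among them Cxcr6 and Ccl5, and 1 lower member, Il12rb1, a subunit of the IL-12 receptor. Without tumour replicate 1, 5 Th1 genes were higher, without tumour replicate 2, 3 were lower, and without the Th1_WT group 8 were higher and 2 lower. The Th1 factor gene Tbx21 was at 12.7, 18.2 and 14.3 against 2.65 to 38.4, and the cytokine gene Ifng at 59.3, 12.4 and 39.8 against 30.4 to 419.6, so both overlapped the cultures. The granzyme gene Gzmb, at 86.4, 1127 and 251, also overlapped (27.4 to 562).

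**Figure D3:**
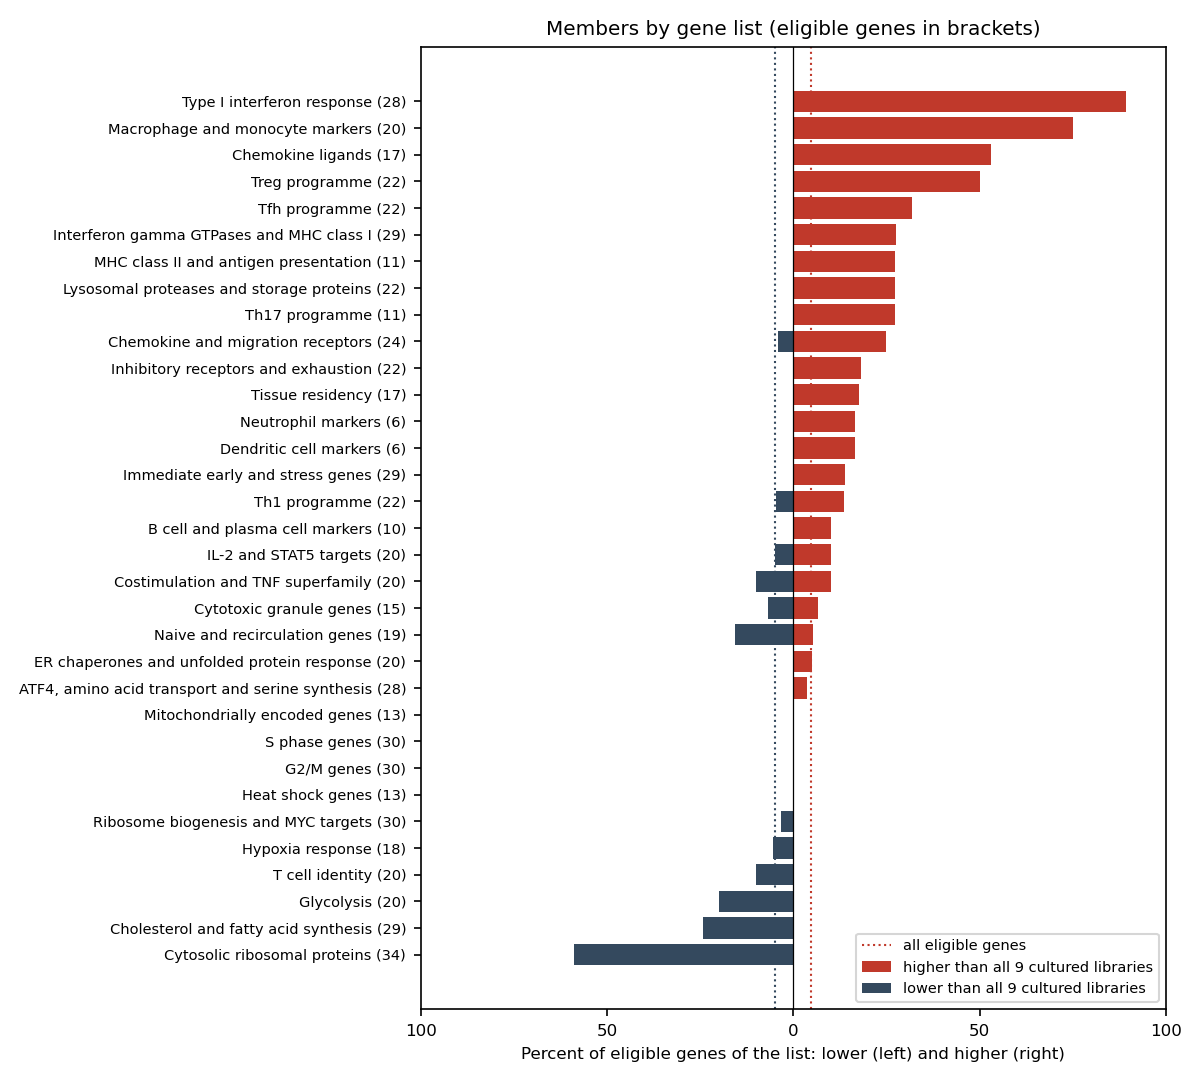
Percent of eligible genes higher (right) and lower (left) in the tumour libraries for each list with at least 6 eligible genes; dotted lines mark the shares over all eligible genes, 4.8% and 4.79%. The type I interferon list (25 of 28 higher) and the cytosolic ribosomal proteins (20 of 34 lower) lie at the ends.

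The lower members separated by smaller steps. Their median log2 difference was -0.87, against 1.48 for the higher members, and the lowest culture was at least 1 log2 unit above the highest tumour library in 7 of 595, compared with 74 of 597 higher members separated that far. A gene at 0 in any culture library cannot be a lower member, which holds for 851 eligible genes, 798 of them with a Th1_WT library at 0. Of the lower members, 359 had their highest tumour value in replicate 1, 116 in replicate 2 and 120 in replicate 3.

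Satb1, a chromatin organiser of thymocytes and naive T cells, was the lower member on the naive T cell list with the widest separation, at 85.2, 106 and 83.2 in the tumour libraries against 434, 406 and 287 in Tfh_WT, 427, 534 and 612 in Tfh_OTII and 258, 348 and 507 in Th1_WT (log2 difference -2.16 ± 0.24, SE, n = 3 per group). The 3 tumour libraries were close together and far from the nearest culture. Ccr7, the receptor that brings T cells to lymph nodes, was at 72.6, 39 and 66 against 121, 100.3 and 81.8 in Tfh_WT, 73.6, 93.4 and 102 in Tfh_OTII and 276, 243 and 289.7 in Th1_WT. Its tumour and Tfh_OTII libraries nearly touched. Dapl1, a gene of naive and memory T cells, was the other lower member among 19 naive and recirculation genes, at 4.14, 1.05 and 3.26 against 4.23 to 32.4. Il7r was a higher member of the same list, at 27.7, 124 and 39.2 against 7.28 to 25.8, but not with TPM as deposited. The median of the naive list was -0.19 and became 0.28 with TPM as deposited. Without tumour replicates 1 and 3 in turn it was -0.05 and -0.08, and without the Th1_WT group 8 of the 19 genes were lower.

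Gzma, the gene of granzyme A, had the widest separation of the named lower members, at 0.301, 1.34 and 1.14 in the tumour libraries against 8.92, 7.28 and 5.58 in Tfh_WT, 4.80, 5.64 and 6.42 in Tfh_OTII and 4.73, 30.8 and 15.3 in Th1_WT. Il2, the T cell growth factor gene, was at 61.7, 13.4 and 38.1 against 66.8 to 336. Tnfsf4, which encodes OX40 ligand, was at 6.31, 2.72 and 4.15 against 12.3 to 21.7. The T cell receptor constant genes Trbc1 and Trbc2 were lower as well, with Trbc1 at 129, 123 and 93.9 against 145 to 328. They were the only lower members among 20 T cell identity genes, none of which was higher, and 4 were lower without tumour replicate 2. The list's median was -0.20 and became 0.27 with TPM as deposited. With TPM as deposited, Gzma, Ccr7 and Dapl1 still lay below every culture, whereas Satb1, Il2, Tnfsf4, Trbc1 and Trbc2 overlapped the cultures. Their log2 differences were then -1.68 for Satb1, -1.24 for Il2, -1.28 for Tnfsf4, -0.34 for Trbc1 and -0.50 for Trbc2.

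Genes of protein synthesis made up the largest block of lower members on any list. Of 34 listed cytosolic ribosomal protein genes, 20 were lower and 0 higher (median log2 difference -1.10), and over the 79 eligible ribosomal protein genes in the files 34 were lower. Rps18, a protein of the small subunit, was at 812, 516 and 574 in the tumour libraries against 1234 to 2920.0 in the cultures. Eef2, the translocase of the elongating ribosome, was at 409, 318 and 405 against 720.0 to 1742. Summed over the list, the tumour replicates stood at 30876, 19520 and 21121 scaled TPM and the cultures at 38926 to 71800. With TPM as deposited, 5 of the 34 genes were lower and the median was -0.62, so the number of lower members rests on the scaling while the sign of the median did not change. Rps18 was still below every culture in that scaling, and Eef2 overlapped.

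Nuclear genes for mitochondrial proteins were also among the lower members. They included 18 of 45 eligible Nduf genes, which encode subunits and assembly factors of respiratory complex I, 6 of 22 Cox genes and 17 of 78 genes for mitochondrial ribosomal proteins. Among 54 Eif translation initiation factor genes, 9 were lower and 1 was higher. With TPM as deposited, 0 Nduf, 1 Cox, 0 mitochondrial ribosomal and 0 Eif genes were lower, and the medians were -0.24, -0.19, -0.13 and 0.06, against -0.71, -0.66, -0.58 and -0.42. Of the 13 mitochondrially encoded genes, 0 were members in either direction, and 2 were higher without tumour replicate 2 and 3 with TPM as deposited.

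Metabolic lists leaned the same way. Of 20 glycolysis genes, 4 were lower (Hk2, Gpi1, Pgk1 and Pgam1; median log2 difference -0.94), and 0 were with TPM as deposited, where the median was -0.47. Without tumour replicate 2, 10 of the 20 were lower. Pgk1, which encodes phosphoglycerate kinase, was at 139, 154 and 128 against 542, 459 and 359 in Tfh_WT, 411, 508 and 556 in Tfh_OTII and 174, 454 and 256 in Th1_WT. Hk2, the inducible hexokinase gene, was at 23, 19.4 and 17.1 against 31.2 to 73.4. Th1_WT replicate 1 came nearest to the tumour libraries in Pgk1, and when the Th1_WT group was left out, 15 of the 20 glycolysis genes were lower. Of 29 cholesterol and fatty acid synthesis genes, 7 were lower (median -0.64), and 0 were with TPM as deposited, where the median was -0.19. Fdps, which makes farnesyl pyrophosphate, was at 24.1, 13.6 and 21.3 against 33.2 to 79.5.

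Proliferation genes depended on which cultures formed the range. Of 30 G2/M genes and 30 S phase genes, 0 were members in either direction, with median log2 differences of -0.83 and -0.95. The medians were -0.47 and -0.51 with TPM as deposited. Without tumour replicates 1 and 2 in turn, 3 and 1 S phase genes were lower. Without the Th1_WT group, 28 G2/M and 25 S phase genes were lower in the tumour libraries than in every Tfh culture library. Summed over the G2/M list, the tumour replicates stood at 408, 493 and 369 scaled TPM. These sums lay above Th1_WT (117 to 243) and below the Tfh cultures (857 to 2564). The S phase sums were 1057, 850 and 914, within the range of Th1_WT (592 to 1698) and below the Tfh cultures (1521 to 3155).

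**Figure D4:**
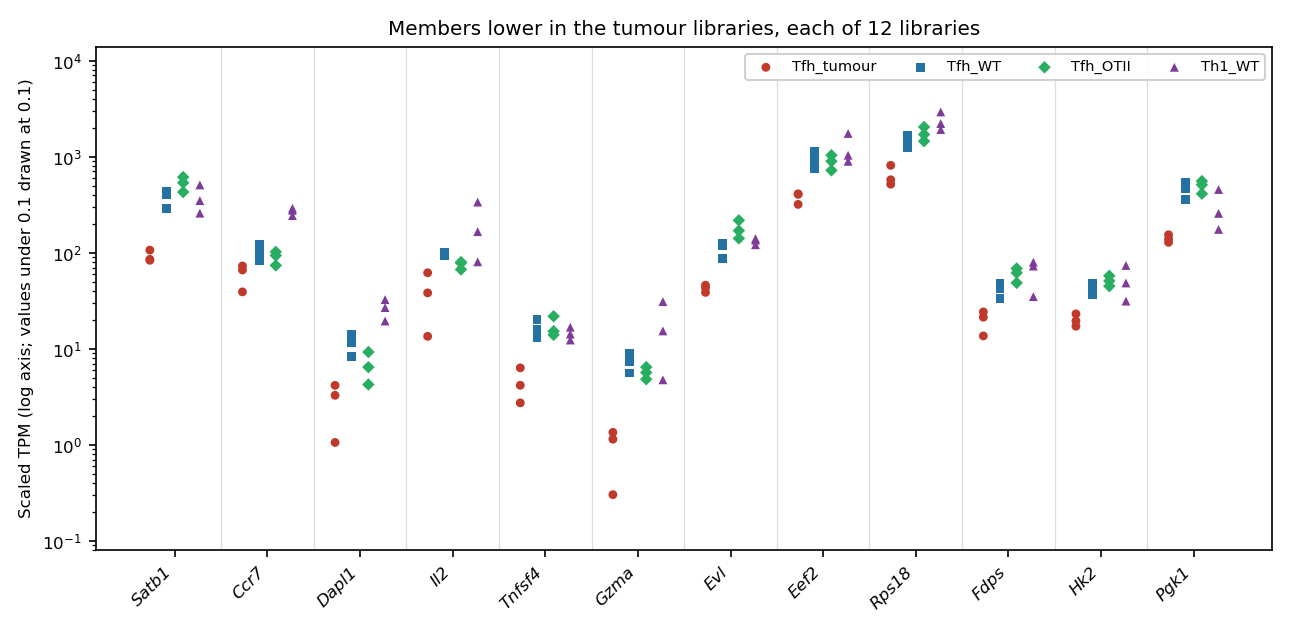
Scaled TPM (log axis) of 12 lower members, 1 point per library, coloured by group; values under 0.1 are drawn at 0.1. The tumour points lie below all culture points of the same gene, with Satb1 at 83.2 to 106 in the tumour libraries and 258 to 612 in culture.

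The cultures were then compared with each other, which asks how the members vary where the tumour libraries play no part in the size of the difference. limma was fitted to log2(scaled TPM + 1) over the 12433 eligible genes, and calls were made at an adjusted p (Benjamini-Hochberg) below 0.05. The fit holds all 12 libraries, so the spread of the tumour libraries enters each gene's SE and p. The shares of members called can therefore reflect that spread too. The rule that chose the members also reads the cultures' range, so these shares are descriptions, and the 3 comparisons share libraries. Between Tfh_OTII and Tfh_WT 4.03% of the eligible genes were called (501), among them 42 of the 597 higher members (7.04%) and 3 of the 595 lower members (0.504%). All 42 higher members called were lower in Tfh_OTII than in Tfh_WT, as were 340 of the 501 eligible genes called. Between Tfh_WT and Th1_WT 24.2% of the eligible genes were called (3009), and 12.9% of the members (154), a smaller share: 66 higher members, of which 58 were higher in Tfh_WT, and 88 lower members, of which 84 were lower in Tfh_WT. Between Tfh_OTII and Th1_WT 32.4% of the eligible genes were called (4023), and 12.3% of the members (147): 58 higher members, of which 18 were higher in Tfh_OTII, and 89 lower members, of which 45 were. Over all eligible genes called, 1627 were higher and 1382 lower in Tfh_WT than in Th1_WT. In the same way, 2231 were higher and 1792 lower in Tfh_OTII than in Th1_WT. The counts of members called moved with single libraries. Between Tfh_OTII and Tfh_WT, the 45 members called became 28, 19 and 10 without Tfh_WT replicates 1, 2 and 3, and 18 and 12 without Tfh_OTII replicates 1 and 3. Between Tfh_WT and Th1_WT the count was 77 and 70 without Tfh_WT replicates 2 and 3, and between Tfh_OTII and Th1_WT it was 79 and 78 without Tfh_OTII replicates 2 and 3. With TPM as deposited, 42, 654 and 707 members were called in the 3 comparisons, 3.53%, 55.0% and 59.4% of the 1190 members tested, against 5.0%, 61.6% and 63.8% of all 12852 genes eligible in that scaling.

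Foxp3 was lower in Tfh_OTII than in Tfh_WT by a log2 difference of -2.96 ± 0.34 (SE, limma adjusted p = 0.000703) and higher in Tfh_WT than in Th1_WT by 3.04 (limma adjusted p = 0.000101). Over the 16 other settings of the first comparison, its limma adjusted p ranged from 0.000387 to 0.00737. Nt5e differed by -2.31 (limma adjusted p = 0.000703), Maf by -2.27 (0.00525) and Il10 by -2.91 (0.00655) between Tfh_OTII and Tfh_WT, each called in 16 of 16 settings. Ikzf2 differed by -2.08 (limma adjusted p = 0.00744) but was not called without Tfh_WT replicate 3 (0.0534). Of other Treg list members, Lrrc32 differed by -1.36 (limma adjusted p = 0.0191), called in 12 of 16 settings. Il1r2 differed by -1.44 and was not called (limma adjusted p = 0.0868). In Foxp3, Nt5e, Maf, Il10 and Ikzf2, Tfh_WT was the culture nearest to the tumour libraries. The titles give these cultures different times, so receptor transgene and time cannot be told apart.

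Against Th1_WT, several interferon-stimulated members were lower in Tfh_OTII. Isg15 differed by -2.71 (limma adjusted p = 0.00254), Irgm1 by -2.28 (0.000118) and Cxcl10 by -2.64 (0.00622) between Tfh_OTII and Th1_WT, each called in 16 of 16 settings. Between Tfh_WT and Th1_WT, Irgm1 differed by -1.56 (limma adjusted p = 0.00285), called in 15 of 16 settings. Isg15 and Cxcl10 differed there by -1.57 and -1.77 but were not called (limma adjusted p = 0.0512 and 0.054). By the labels, the Tfh cultures held an antibody blocking IFNγ and the Th1 cultures did not. This cannot be told apart from the other differences between these cultures. Ccr7 was lower in Tfh_OTII than in Th1_WT by -1.59 (limma adjusted p = 0.000822), called in 15 of 16 settings. Of the 597 higher members, 320 had their highest culture mean in Tfh_WT, 173 in Th1_WT and 104 in Tfh_OTII, whereas of the 595 lower members 350 had it in Th1_WT, 226 in Tfh_OTII and 19 in Tfh_WT. Over all 12433 eligible genes, 5514 had it in Th1_WT, 4671 in Tfh_OTII and 2248 in Tfh_WT. Th1_WT and Tfh_OTII were thus the commoner places for eligible genes in general, as for the lower members.

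The number of members moved with the scaling and with the libraries left out. With TPM as deposited, 1288 of 12852 eligible genes (10.0%) were higher and 38 (0.296%) lower, so 97.1% of members were higher against 50.1% with size factors, and the median difference of all eligible genes was 0.43 higher on the log2 scale. Of the 597 higher members 556 met the rule in both scalings, but of the 595 lower members only 33 did. Leaving libraries out loosens the rule, so the following counts can rise by the rule alone. Without the Th1_WT group, 1086 genes were higher and 1842 lower. Leaving out tumour replicate 1 gave 987 higher and 1260 lower genes, and leaving out Th1_WT replicate 1 gave 931 lower genes.

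**Figure D5:**
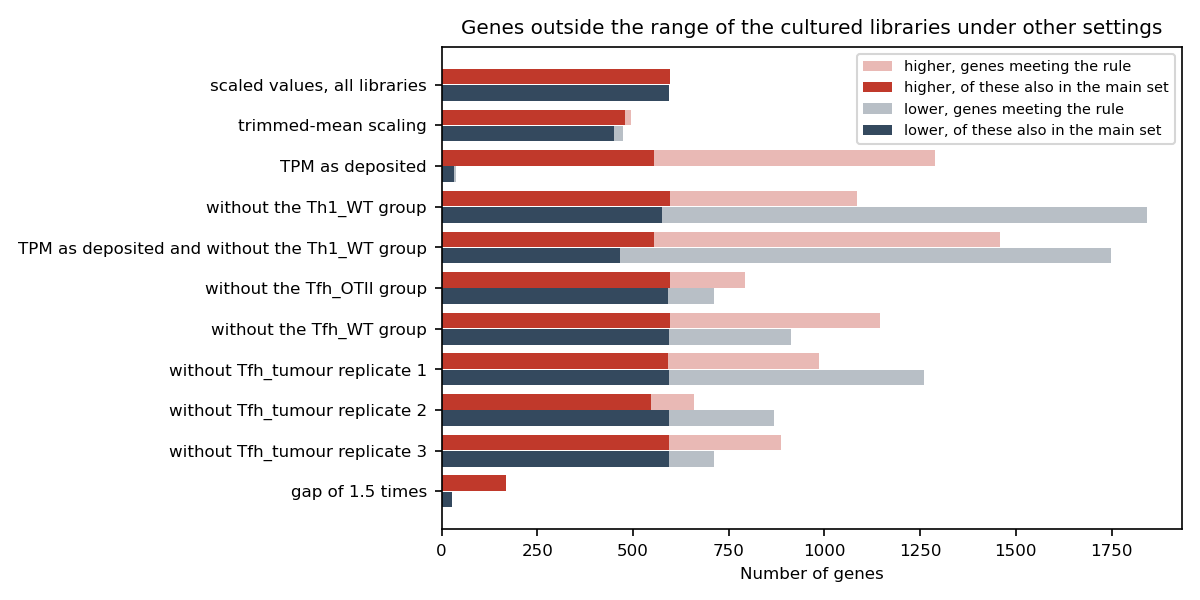
Number of genes higher and lower in the tumour libraries under each setting; pale bars count all genes that met the rule and dark bars those shared with the sets described in the text (597 higher, 595 lower). With TPM as deposited the higher bar reaches 1288 and the lower bar 38.

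At the threshold itself the separation was slight. The higher member with the narrowest margin was Entpd7, at 13.8, 17 and 12.1 in the tumour libraries against 7.44 to 12.1 in the cultures, and Ocel1 lay just outside, at 7.80, 12.7 and 8.99 against 3.55 to 7.81. Among lower members Cactin was just inside, at 12.4, 13.1 and 11.7 against 13.1 to 38.5, and Cbr4 just outside, at 7.34, 6.17 and 7.43 against 7.43 to 13.3.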

How the data were processed

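RNA was sequenced from 300000 CD4+ T cells per library (stranded total RNA, ribosomal RNA removed, pairs of 75 bases), per the labels' protocols. The authors deposited TPM, 1 value per gene symbol and library. The submitters' processing notes name kallisto and mm10, and the kallisto version and annotation are not given in the sources used here. Depth is unknown, since TPM keep no counts. TPM were read as deposited and divided by the size factors. limma 3.58.1 (R 4.3.3, intensity trend, pseudocount 1) was fitted to the 12 libraries with a mean for each group, and tests were taken only between cultures. Scripts used Python 3.11.15, numpy 2.4.6 and pandas 2.3.3. Scripts were tested on simulated data. Symbols were matched to GENCODE mouse release 21 (34699, 97.8%), and promoters come from RefSeq.

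The members and gene lists were chosen with earlier results of these data known. Genes were named by rule: the 15 higher and 15 lower members with the widest gap, up to 5 per direction in each list (all if 6 or fewer), 3 genes each side of the threshold, and 13 fixed genes. Gene families and list or family genes beyond these were picked after their values were seen. Deviations of same-numbered libraries of different groups correlated at -0.516 to 0.336 over 18 pairs, above 0.1 in 3. Tfh_OTII and Th1_WT correlated at 0.22, 0.08 and 0.34, and Tfh_WT and Tfh_OTII at -0.52, -0.08 and -0.45. The main fit used no pairing, and a replicate block was an alternative. Alternatives covered scaling, filter, pseudocount, gap, cultures and libraries left out. Some genes of the lists are not reported here.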

Additional observations from a re-analysis of the deposited data

How the results depend on the processing

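Counts of higher and lower genes under other settings were as follows. TPM as deposited gave 1288 and 38, a gap of 1.5 times 168 and 27, leaving out the Th1_WT group 1086 and 1842, and leaving out the Tfh_WT group 1145 and 912. TPM as deposited without the Th1_WT group, chosen after seeing the data, gave 1458 and 1748. Leaving out 1 library at a time gave 601 to 987 higher and 598 to 1260 lower genes. Counts with libraries left out can rise by the rule alone, since it is loosened. Members called between cultures with TPM as deposited were 654 between Tfh_WT and Th1_WT and 707 between Tfh_OTII and Th1_WT, against 154 and 147. Leaving out 1 culture library at a time gave 10 to 66 (Tfh_OTII and Tfh_WT), 70 to 202 (Tfh_WT and Th1_WT) and 78 to 168 (Tfh_OTII and Th1_WT). With the replicate block the counts were 39, 143 and 134. Of 134 named genes, 61 moved by more than the replicate spread with TPM as deposited, and Cactin changed sign to 0.0546. The causes were not tested beyond the scaling shift given above.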

Other observations

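Of the 597 higher members, 105 were on any of the gene lists used, and of the 595 lower members 43 were. The other members named here were chosen after their values were seen. Several were highest in tumour replicate 2: Slfn4, a Schlafen gene, was at 7.92, 385 and 70.8 scaled TPM in tumour replicates 1, 2 and 3 and at most 1.51 in the cultures, Acod1, the gene of the itaconate-making enzyme, at 13.1, 119 and 28.7 against at most 3.58, and Hmox1, the gene of heme oxygenase, at 33.5, 179 and 65.8 against at most 10.3.

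In 100 of the 597 higher members, tumour replicate 2 was not the highest tumour library. Tet2, which encodes an enzyme that oxidises 5-methylcytosine, was at 298, 153 and 142 in the tumour libraries against 82.3, 99.7 and 126 in Tfh_WT, 31.7, 33.8 and 32.2 in Tfh_OTII and 94.6, 102 and 58.4 in Th1_WT. Tbc1d4, a regulator of glucose transporter traffic, was at 39.4, 29.1 and 37.5 against 2.03 to 16.6. The amino acid oxidase gene Il4i1 was at 12, 6.48 and 9.86 against 2.20 to 4.34. Among the lower members, Id3, an inhibitor of E protein transcription factors, was at 7.69, 5.13 and 6.80 against 15, 11.4 and 9.69 in Tfh_WT, 19.1, 26.6 and 24.1 in Tfh_OTII and 37.9, 33.7 and 77 in Th1_WT, and Mif, a cytokine gene, at 262, 133 and 198 against 373 to 757. Mif overlapped the cultures with TPM as deposited.

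Higher and lower members also differed in transcript properties. The median longest transcript was 3604 bases in higher members, 2273 in lower members and 3090 in all eligible genes, and the median GC content of these transcripts was 46.1%, 52.3% and 48.4%. The part of length and base composition in the differences was not tested.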
